A study of Mus musculus with 12 samples.

Results

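The levels of 9 noncoding RNAs of the nucleus and of imprinted loci were followed through 4 groups of mouse cortical neuron cultures. They were taken by symbol from the table of raw counts, as the rows Malat1, Neat1, Miat, Meg3, Rian, Mirg, Snhg11, Gas5 and Snhg1, and all 9 were found among its 23893 genes. Meg3, Rian, Malat1, Snhg11 and Miat were abundant, with 134 to 937 CPM (counts scaled to a common library size) on average over the 12 libraries, but Gas5, Neat1, Snhg1 and Mirg were not, with 2.36 to 15.1 CPM. The study asked how loss of topoisomerase 1 (TOP1), the enzyme that relaxes DNA ahead of RNA polymerase, compares with its inhibition by topotecan, which traps the enzyme on DNA. The cultures came from the cortex of C57BL6 mice (C57BL6/J in the growth protocol) at embryonic day E13.5–15.5 and, per the paper, all were Top1fl/fl, so the control neurons carried the floxed allele too, although the labels call them wild-type. WT cultures received a lentivirus with tdTomato and Top1 cKO cultures one with tdTomato-P2A-CRE, each under the CaMKIIα promoter and added at 3 days in vitro (DIV). That promoter restricts CRE to neurons, and transduction reached about 85 to 90% of cells, so glia and a minority of neurons keep Top1. From DIV 15, each genotype was given vehicle (0.003% DMSO, in WT-Veh and Top1 cKO-Veh) or 300 nM topotecan in the same vehicle (WT-Topot and Top1 cKO-Topot) for 3 days. Each group had 3 cultures, and polyA RNA was sequenced.

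Malat1, Neat1 and Miat (also called Gomafu) are long noncoding RNAs that stay in the nucleus. Malat1 gathers in nuclear speckles, where splicing factors are stored, Neat1 is the scaffold of paraspeckles, and Miat forms separate spots in the nuclei of neurons. Meg3, Rian and Mirg lie in this order on the same strand of the imprinted Dlk1-Dio3 region, where they are transcribed from the maternal chromosome, while the protein-coding genes Dlk1, Rtl1 and Dio3 are expressed from the paternal one. Rian hosts many small nucleolar RNAs (snoRNAs) and Mirg many microRNAs in their introns. Snhg11, Gas5 and Snhg1 are also snoRNA hosts, whose spliced transcripts are by-products of snoRNA release. Gas5 and Snhg1 belong to the genes with a 5′ terminal oligopyrimidine start, and their spliced RNAs are removed by nonsense-mediated decay.

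In the GENCODE vM1 annotation of the mm9 assembly, Meg3 covers chr12:110779211-110809936, Rian chr12:110842155-110899919 and Mirg chr12:110973191-110987665, all on the plus strand. Malat1 (chr19:5795690-5802671) and Neat1 (chr19:5824708-5845478) are neighbours on the minus strand and have a single exon each. Miat (chr5:112642248-112657968, minus strand), Snhg11 (chr2:158201374-158211881), Gas5 (chr1:162964553-162968670) and Snhg1 (chr19:8797986-8800932), the last 3 on the plus strand, complete the group. With spans of 2.95 kb (Snhg1) to 57.76 kb (Rian), none of them passed the length of 100 kb above which the study speaks of long genes. The annotation classes Snhg11 as protein-coding, Malat1 and Neat1 as processed transcripts and the other members as lincRNAs.

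Promoter windows of 250 bases before to 50 after the start were found in RefSeq (GRCm38.p6) for 8 of the 9 members, the exception being Neat1. Shown are those of the 5 abundant members, because the levels of Meg3, Malat1, Miat and Snhg11 were closely correlated across the libraries, while Rian differed from Meg3, its neighbour, between groups. Capitals mark, on either strand, TGACG (the core of the cAMP response element), GGGCGG (an Sp1-type GC box), CCAAT (the CCAAT box), TATAAA (the TATA box), CACGTG (an E box), CCGGAA (an ETS-type site) and GCGCATG (an NRF1-type site), with runs of capitals where matches overlap or touch.
Meg3, chr12:109540746-109541045, plus strand: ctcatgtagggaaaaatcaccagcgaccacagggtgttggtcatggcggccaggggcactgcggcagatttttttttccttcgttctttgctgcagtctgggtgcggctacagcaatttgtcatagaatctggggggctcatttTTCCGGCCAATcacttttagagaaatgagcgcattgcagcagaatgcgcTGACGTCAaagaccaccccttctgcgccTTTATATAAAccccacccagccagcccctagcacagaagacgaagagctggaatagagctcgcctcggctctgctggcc
Malat1, chr19:5802623-5802922, minus strand: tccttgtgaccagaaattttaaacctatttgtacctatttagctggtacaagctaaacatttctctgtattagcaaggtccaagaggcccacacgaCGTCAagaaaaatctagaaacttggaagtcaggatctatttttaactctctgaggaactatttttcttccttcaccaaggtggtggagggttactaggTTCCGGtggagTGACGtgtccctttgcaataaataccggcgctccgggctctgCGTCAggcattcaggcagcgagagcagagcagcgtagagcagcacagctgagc
Miat, chr5:112228899-112229198, minus strand: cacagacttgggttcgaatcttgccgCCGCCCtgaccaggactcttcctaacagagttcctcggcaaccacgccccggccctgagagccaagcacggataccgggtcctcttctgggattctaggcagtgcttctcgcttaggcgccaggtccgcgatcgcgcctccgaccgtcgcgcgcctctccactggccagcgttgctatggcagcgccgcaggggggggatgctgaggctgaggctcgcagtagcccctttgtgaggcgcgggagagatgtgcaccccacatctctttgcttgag
Snhg11, chr2:158375463-158375762, plus strand: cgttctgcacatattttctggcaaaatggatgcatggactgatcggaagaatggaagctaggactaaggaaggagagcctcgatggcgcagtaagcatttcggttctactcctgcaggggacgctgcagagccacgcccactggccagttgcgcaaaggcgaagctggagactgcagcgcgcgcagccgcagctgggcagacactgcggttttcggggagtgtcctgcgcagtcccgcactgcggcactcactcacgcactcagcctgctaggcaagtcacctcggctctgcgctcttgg
Rian, chr12:109603695-109603994, plus strand: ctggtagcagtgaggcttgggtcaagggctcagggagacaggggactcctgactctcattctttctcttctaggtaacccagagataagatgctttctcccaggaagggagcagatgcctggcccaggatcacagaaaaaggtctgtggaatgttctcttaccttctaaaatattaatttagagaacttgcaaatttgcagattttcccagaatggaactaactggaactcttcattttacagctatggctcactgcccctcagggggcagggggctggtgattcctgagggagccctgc

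The Meg3 window held TGACG on both strands 57 and 54 bases before the start, as the palindrome TGACGTCA, with TATAAA 25 bases before it, and the Malat1 window held TGACG at 3 places. TGACG occurred in 20.8% of the 32851 promoter windows in the table, TATAAA in 13.6%, CCAAT in 37.4%, GGGCGG in 35.7%, CCGGAA in 14.9%, CACGTG in 7.15% and GCGCATG in 3.91%. The Rian and Snhg11 windows held none of these motifs, which says only that the letters are not in these 300 bases. No motif of this set was shared by Meg3, Malat1, Miat and Snhg11, as TGACG was found in the windows of Meg3 and Malat1 and not in those of Miat and Snhg11. A second RefSeq start of Meg3 and an earlier one of Gas5 were searched as well, and the Meg3 one held no motif.

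Around the start, from 10 bases before to 20 bases from it, Gas5 and Snhg1 read as follows, with capitals for a C followed by at least 4 pyrimidines that begins within 5 bases of the annotated start. They are shown because both genes are known as hosts with such a start.
Gas5, plus strand: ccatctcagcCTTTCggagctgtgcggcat
Snhg1, plus strand: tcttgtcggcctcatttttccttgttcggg
Gas5 had the run at the start shown and not at its other RefSeq start, and Snhg1 had none within 5 bases of its start. Of all windows 18.3% held such a run, among them that of Miat and 1 of the 2 of Meg3, which are not known for such a start.

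Within the introns and exons of the Dlk1-Dio3 members lie hairpins of microRNAs. RefSeq gave 13 mature microRNAs for a chosen set of hairpins inside Meg3, Rian and Mirg, and all 13 seeds (bases 2 to 8, in capitals) differed. Of the 10 hairpins annotated within Mirg, on either strand, only Mir377 and Mir410 were looked up. Shown are 6 of the 9 from Meg3 and Rian, since these hosts differed in how they responded.
miR-770-5p, in Meg3: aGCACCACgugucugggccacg
miR-770-3p, in Meg3: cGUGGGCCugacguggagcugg
miR-1906, in Meg3: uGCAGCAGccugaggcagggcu
miR-341-3p, in Rian: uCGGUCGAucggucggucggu
miR-1188-5p, in Rian: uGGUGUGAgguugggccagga
miR-370-3p, in Rian: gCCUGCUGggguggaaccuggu
PolyA libraries do not measure these mature microRNAs. Rows for Mir341, Mir1188 and Mir370 held 2 to 9 counts over all 12 libraries.

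The libraries held 1730164 to 4583777 counts. Top1 was at 117 to 163 CPM in the 6 WT libraries and at 27.1 to 44.0 CPM in the 6 Top1 cKO libraries, which matches the labels. The summed level of 7 neuronal markers (5030 to 6730 CPM) spanned a narrow range, and 6 microglial markers summed to 2.51 to 12.6 CPM. The 6 astrocyte markers spanned a wide range, with 969 to 2870 CPM in WT-Veh, 365 to 759 in WT-Topot, 899 to 3110 in Top1 cKO-Veh and 341 to 1080 in Top1 cKO-Topot. In these bulk samples, a change in the share of a cell type and a change in RNA per cell cannot be told apart. Libraries carry a replicate number of 1, 2 or 3 in the labels, and those that share one deviated together from their group means. Results are therefore given from the fit of the 2 groups and, where the call differs, from the same fit with that number added as a block, named the blocked fit. A gene was called at a false discovery rate (FDR) of 0.01 over all 23893 genes with edgeR's quasi-likelihood test.

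Per kilobase of annotated exon, the order of the mean levels was Meg3 (51.8 CPM per kb), Malat1 (43.7), Rian (41.4), Snhg11 (27.4), Miat (15.3), Gas5 (4.01), Snhg1 (1.72), Mirg (0.743) and Neat1 (0.397). The length that is used moves this order, since on the longest annotated transcript Rian (64.7) and Meg3 (64.4) were level and Malat1 stayed at 43.7. The last place of Neat1 rests on a length of 20.77 kb, while its annotated transcripts have 152 to 20771 bases. PolyA libraries record only polyadenylated transcripts, so the order is not one of total RNA. Within WT-Veh, Rian had 57.2 ± 24.8 CPM per kb (SD, n = 3 cultures), Malat1 32.7 ± 14.6, Meg3 28.2 ± 16.5 and Snhg11 22.4 ± 13.2, and the SDs of these neighbours in the order overlapped. Within each of the 3 replicate numbers, however, the order was the same, with Rian at 37.0, 49.7 and 84.9 CPM per kb for numbers 1, 2 and 3, Malat1 at 22.0, 26.8 and 49.3, Meg3 at 14.7, 23.3 and 46.7 and Snhg11 at 13.7, 15.9 and 37.5. In CPM, Meg3 ranked 90th of the 13720 genes averaging at least 1 CPM, and Rian 553rd. Together the 9 RNAs took 1490 ± 771 CPM with vehicle and 1490 ± 1090 with topotecan in WT cultures, and 2470 ± 1540 with vehicle and 2480 ± 1370 with topotecan in Top1 cKO cultures (SD, n = 3 each). The ranges of the groups overlapped, but within each number the sum was higher in Top1 cKO-Veh (1165, 2073 and 4164 CPM) than in WT-Veh (889, 1216 and 2358 CPM). Much of the sum was Meg3, with 41.4 to 49.8% of it in Top1 cKO-Veh and 30.0 to 35.8% in WT-Veh. Between these groups 4 of the 9 RNAs were higher at all 3 numbers, and 2, Rian and Snhg1, were lower. Of the 13699 genes averaging at least 1 CPM in these groups, 23.6% were higher and 22.8% lower at all 3 numbers.

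**Figure D1:**
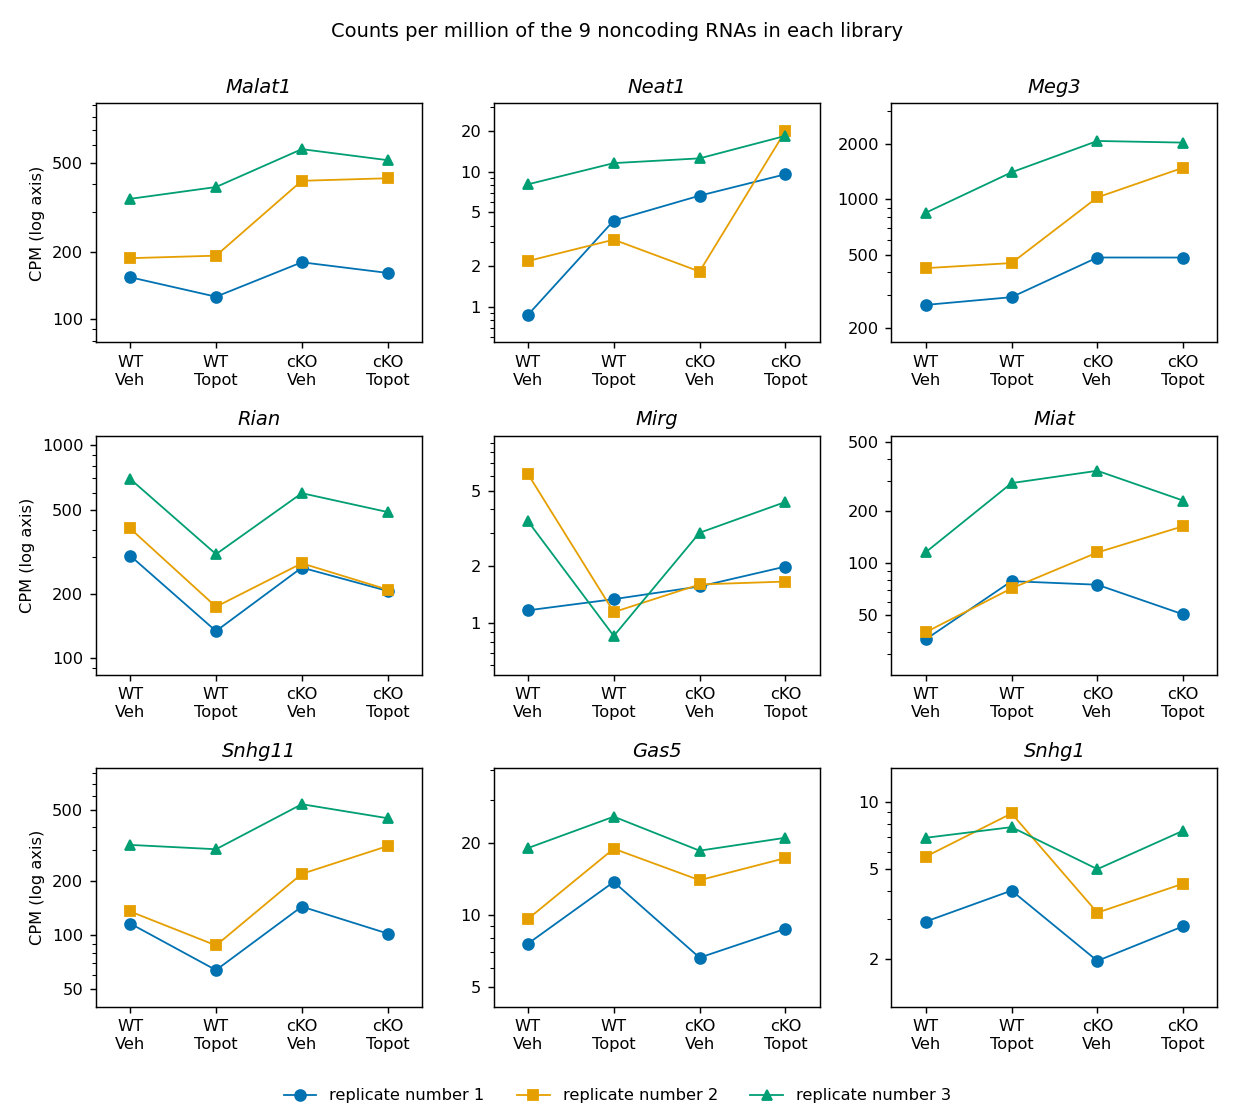
Level of each RNA in every library, in CPM on a log axis, with the 4 groups on the horizontal axis and lines joining the libraries that share a replicate number. For Meg3, Malat1, Rian, Miat, Snhg11 and Gas5 the number 3 library was the highest in all 4 groups, and Rian differed between WT-Topot and WT-Veh by −1.17, −1.22 and −1.17 on the log2(CPM + 1) scale at numbers 1, 2 and 3.

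The replicate number took a larger share of the variance than the group for 7 of these RNAs. From number 1 to number 3, averaged over the 4 groups and on the log2(CPM + 1) scale, Meg3 differed by 2.02, Miat by 1.97, Snhg11 by 1.92 and Malat1 by 1.53, and only 0.226% of the 13720 genes had a larger difference than Malat1. Neat1 (1.3), Rian (1.19), Gas5 (1.15), Snhg1 (1.00) and Mirg (0.55) were higher in number 3 as well, against a median of −0.01 for all genes, of which 1.6% were higher by at least 1. In every group the number 3 library of Meg3, at 844 to 2070 CPM, exceeded that of number 1, at 267 to 482 CPM. The ranges did not overlap for Malat1 either, with 344 to 574 CPM in number 3 against 126 to 179 in number 1, nor for Snhg11, with 302 to 539 against 64.0 to 145 CPM. Of the variance of log2(CPM + 1), the number took 57.1 to 72.4% for 7 of the RNAs, 32.3% for Neat1 and 15.8% for Mirg, and the group 20.6 to 48.4%, while for the median gene the number took 25.9% and the group 40.1%. The number 3 libraries had the fewest counts in all 4 groups (1730164 to 2250132), and astrocyte markers summed to 341 to 969 CPM in number 3 against 759 to 3110 CPM in number 1. The part of depth or of astrocytes in these differences was not tested, and neither the labels nor the paper say what a number stands for. Among genes averaging at least 10 CPM, Hmha1 (2.56), Wdfy1 (2.32), D4Wsu53e (2.13) and Sfi1 (2.11) differed most. Further down came the somatostatin gene Sst (1.99) and the transthyretin gene Ttr (1.77), the latter a product of the choroid plexus, and the splicing-related kinase gene Clk1 (1.69). The sums of 5 interneuron markers, Sst included, overlapped, at 902 to 1500 CPM in number 3 and 492 to 1140 CPM in number 1.

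**Figure D2:**
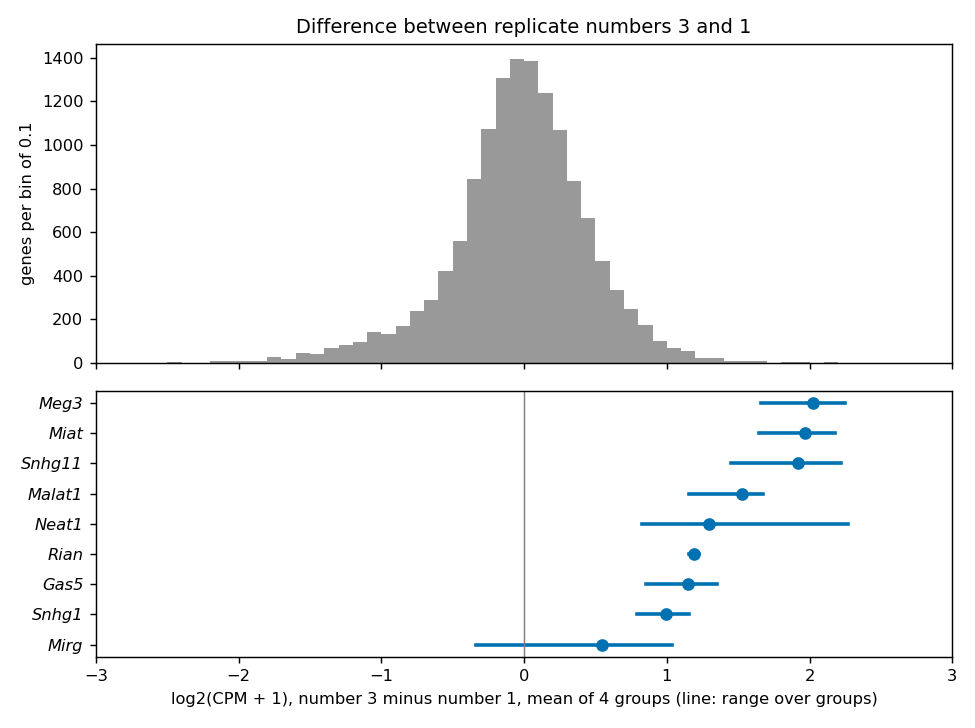
Top, number of genes averaging at least 1 CPM by their difference between replicate numbers 3 and 1, in bins of 0.1 on the log2(CPM + 1) scale. Bottom, the same difference for each of the 9 RNAs, with the mean over the 4 groups as a point and the range over groups as a line: Meg3, Miat, Snhg11 and Malat1 lay between 1.53 and 2.02, beyond nearly all genes.

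Without the block, none of the 9 RNAs passed the FDR of 0.01 in any of the 6 comparisons by edgeR's quasi-likelihood test. Of all genes, 2.04% were called lower and 0.682% higher in WT-Topot against WT-Veh, 0.126% and 0.046% in Top1 cKO-Veh against WT-Veh, and 0.00837% and 0% for topotecan in Top1 cKO cultures. The shares were 1.21% and 0.473% in Top1 cKO-Topot against WT-Veh, 1.23% and 0.293% in WT-Topot against Top1 cKO-Veh, and 0.0377% and 0.398% for the interaction, the difference between the topotecan effects in Top1 cKO and in WT cultures. At an unadjusted p under 0.05, 2 of the RNAs were lower and 1 higher in WT-Topot against WT-Veh, where 11.7% of the genes averaging at least 1 CPM were lower and 9.65% higher at that p. In Top1 cKO-Veh against WT-Veh, 3 were higher and none lower (7.66% of genes lower, 6.54% higher), and for topotecan in Top1 cKO cultures 1 was higher (4.31% and 2.54%). In Top1 cKO-Topot against WT-Veh, 1 was lower and 4 were higher (11.9% and 10.4%), in WT-Topot against Top1 cKO-Veh 2 were lower and 1 was higher (11.3% and 8.83%), and for the interaction 1 was higher (5.95% and 7.47%). The edgeR exact test called none in the 5 comparisons of groups, and DESeq2 called 1, Rian, as lower in WT-Topot. The median log2 fold change of the 9 RNAs was 0.46 for WT-Topot, 0.66 for Top1 cKO-Veh and 0.63 for Top1 cKO-Topot, each against WT-Veh, 0.17 for topotecan in Top1 cKO cultures and −0.72 between the single treatments, while that of all genes averaging at least 1 CPM lay between −0.01 and 0.03.

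In the blocked fit, Mirg, Gas5 and Snhg1 were not called in any comparison. Calls of the other RNAs are given by comparison, each beside the shares of all genes. In WT-Topot against WT-Veh, Rian and Snhg11 were lower and Miat was higher (5% of all genes lower, 3.24% higher). In Top1 cKO-Veh against WT-Veh, Malat1, Meg3, Miat and Snhg11 were higher and none was lower (2.95% and 2.6%). In Top1 cKO-Topot against Top1 cKO-Veh, Rian was lower and Neat1 higher (1.74% and 0.858%). In Top1 cKO-Topot against WT-Veh, Rian was lower and Malat1, Neat1, Meg3 and Miat were higher (4.02% and 3.34%), and in WT-Topot against Top1 cKO-Veh, Malat1, Meg3, Rian and Snhg11 were lower (4.8% and 2.93%). For the interaction, Miat was lower and Rian higher (1.53% and 2.44%). The 5 abundant RNAs and Gas5 averaged at least 10 CPM over the groups compared. Neat1 did so for topotecan in Top1 cKO cultures only, with means of 7.0 CPM in Top1 cKO-Veh and 15.9 CPM in Top1 cKO-Topot. Genes averaging at least 10 CPM were called more often. Of them, 11.1% were lower and 7.17% higher for WT-Topot, and 6.73% lower and 6.2% higher for Top1 cKO-Veh, each against WT-Veh. The shares were 4.03% and 2.06% for topotecan in Top1 cKO cultures, 9.35% and 7.94% for Top1 cKO-Topot against WT-Veh, 11% and 6.32% between the single treatments, and 3.51% and 5.88% for the interaction. The 3 WT-Veh libraries served in 3 of the comparisons of groups, as did the 3 Top1 cKO-Veh libraries, and the interaction used all 12 libraries, so these results are not independent of each other.

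**Figure D3:**
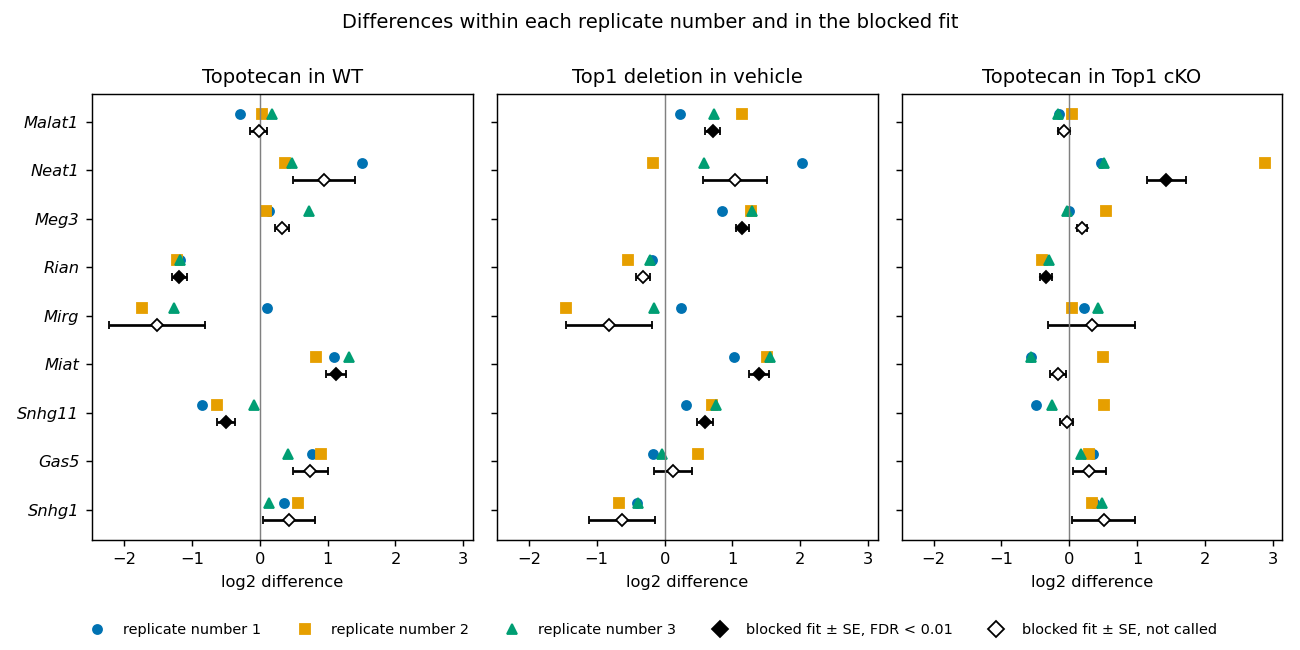
Difference of each RNA on the log2 scale within each replicate number (coloured symbols, log2(CPM + 1)) and as estimated by the blocked fit with its standard error (diamonds, filled where the FDR is below 0.01), for topotecan in WT, Top1 deletion in vehicle, and topotecan in Top1 cKO. The 3 values of Rian in WT-Topot lay between −1.22 and −1.17, and in the third panel the number 2 value of Neat1 stood apart at 2.89.

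Rian, the snoRNA host in the middle of the imprinted cluster, was lower with topotecan by an even step. Its levels in WT-Veh were 304, 408 and 696 CPM for numbers 1, 2 and 3, and in WT-Topot they were 134, 175 and 309 CPM. Only the number 3 library of WT-Topot reached into the range of WT-Veh, and within each number the treated library was below its vehicle partner by nearly the same step, with differences of −1.17, −1.22 and −1.17 on the log2(CPM + 1) scale. The log2 fold change was −1.18 ± 0.287 (SE, adjusted p = 0.0179, edgeR) without the block, a 2.27-fold lower level, and −1.18 ± 0.116 (adjusted p = 8.42e-16) with it. In the blocked fit it stayed between −1.20 and −1.17 and was called without any 1 of the 3 numbers.

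In Top1 cKO cultures Rian was nearer to the WT-Veh level. Top1 cKO-Veh libraries had 267, 280 and 597 CPM and Top1 cKO-Topot libraries 208, 211 and 487 CPM, so all 4 groups overlapped. Deletion alone gave −0.30 ± 0.308 (adjusted p = 0.981, edgeR), and −0.32 ± 0.107 with the block (adjusted p = 0.0381), which is not a call. Topotecan in Top1 cKO cultures gave −0.33 ± 0.32 (adjusted p = 1) and, with the block, −0.34 ± 0.0876 (adjusted p = 0.00483, edgeR), a call that was lost without any 1 of the numbers (adjusted p = 0.0122 to 0.156). The topotecan effects differed by 0.84 ± 0.145 on the log2 scale in the blocked fit of all 12 libraries (adjusted p = 5.26e-05, edgeR), and by 0.85 ± 0.515 (adjusted p = 0.81) without the block. Compared with Top1 cKO-Veh, WT-Topot cultures had a lower Rian level by −0.88 ± 0.295 without the block (adjusted p = 0.143) and −0.87 ± 0.0976 with it (adjusted p = 9.16e-09), a call lost without number 2 (highest adjusted p = 0.0974). Top1 cKO-Topot was below WT-Veh by −0.61 ± 0.294 (adjusted p = 0.371) and −0.65 ± 0.118 with the block (adjusted p = 0.000102), a call of Rian that was lost without number 1 (adjusted p = 0.147).

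Meg3, the first noncoding gene of the same imprinted cluster, was higher after Top1 deletion in the blocked fit. WT-Veh libraries had 267, 422 and 844 CPM, WT-Topot 294, 450 and 1400, Top1 cKO-Veh 482, 1023 and 2072, and Top1 cKO-Topot 482, 1483 and 2030 CPM. Every Top1 cKO-Veh library was above the WT-Veh library of its number, by 0.85, 1.28 and 1.29 on the log2(CPM + 1) scale, although the groups as a whole overlapped. The fold change of Meg3 after deletion was 1.22 ± 0.42 on the log2 scale (adjusted p = 0.286, edgeR) without the block and 1.15 ± 0.0974 (adjusted p = 9.14e-29) with it, and it was called without any 1 of the numbers. Topotecan in WT cultures gave 0.33 ± 0.107 with the block (adjusted p = 0.026) and in Top1 cKO cultures 0.18 ± 0.0692 (adjusted p = 0.135), neither of which is a call. Each was called in 1 of the 3 fits that left a number out, in WT without number 2 (0.45, adjusted p = 0.00265) and in Top1 cKO cultures without number 3 (0.29, adjusted p = 0.0088), and the values ranged from 0.12 to 0.45 and from −0.01 to 0.29. The interaction of Meg3 was −0.14 ± 0.168 (adjusted p = 1). Top1 cKO-Topot cultures were above WT-Veh by 1.41 ± 0.375 (adjusted p = 0.0391) without the block and 1.34 ± 0.117 (adjusted p = 2.76e-11) with it. This last call was lost without number 1, at an adjusted p of 0.0404, although number 1 had the smallest difference (0.85, against 1.81 and 1.26) and the estimate then rose to 1.54.

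Mirg, the microRNA host at the end of the cluster, was close to the limit of detection, with 2 to 14 counts per library. Its levels were 1.17, 6.14 and 3.46 CPM in WT-Veh and 1.34, 1.14 and 0.856 CPM in WT-Topot. The difference of −1.58 ± 0.71 (adjusted p = 0.329, edgeR) was carried by numbers 2 and 3, and with the block it was −1.52 ± 0.702 (adjusted p = 0.193). All WT-Topot libraries of Mirg lay below all Top1 cKO-Veh libraries (1.56, 1.6 and 3.01 CPM), as did those of 12.3% of genes averaging at least 1 CPM, with a log2 fold change of −0.79 ± 0.675 (adjusted p = 0.863). The other libraries of Mirg, of Top1 cKO-Topot, had 1.99, 1.66 and 4.37 CPM. With standard errors of 0.601 to 0.887 in the blocked fits, a log2 difference of the size found for Rian was not detectable for Mirg at this depth.

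The ratio of Rian to Meg3 compares these neighbours within a library. It was 0.825 to 1.14 in the 3 WT-Veh libraries, and lower in each of the other 9 libraries, at 0.22 to 0.458 in WT-Topot, 0.274 to 0.554 in Top1 cKO-Veh and 0.142 to 0.431 in Top1 cKO-Topot. This ratio was chosen after the values were seen and is given with no test. Beside it, the mean of Rian was 206 ± 91.3 CPM in WT-Topot against 469 ± 203 in WT-Veh, and that of Meg3 1190 ± 808 CPM in Top1 cKO-Veh against 511 ± 299 (SD, n = 3 cultures).

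**Figure D4:**
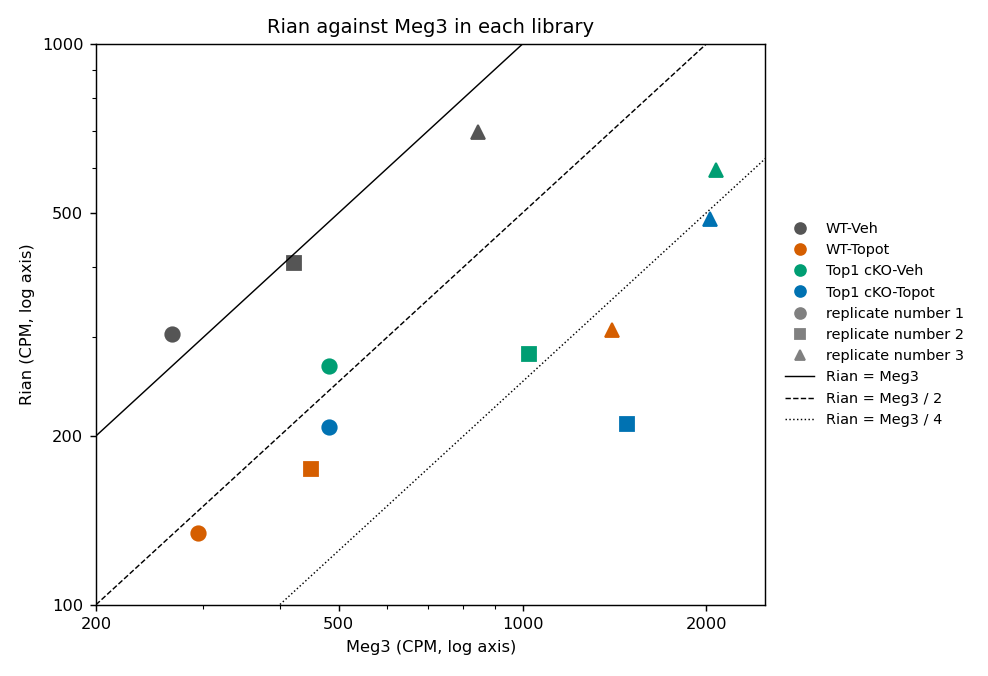
Rian against Meg3 in CPM, both on log axes, with 1 symbol per library, coloured by group and shaped by replicate number. The lines give equal levels and ratios of 1 to 2 and 1 to 4: the 3 WT-Veh libraries sat near equality (0.825 to 1.14), and the other 9 between 0.142 and 0.554.

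Separate rows of the table that lie inside these hosts were measured as well. AF357359, an entry of 30 bases inside Rian (chr12:109650709-109650738 of GRCm38.p6), held 5.75 to 8.02% as many counts as Rian. It had 21.4, 32.4 and 53.6 CPM in WT-Veh and 10.7, 14 and 20.6 CPM in WT-Topot, so no WT-Topot library reached the lowest WT-Veh library, as for 13.2% of genes averaging at least 1 CPM. Its log2 fold change was −1.23 (adjusted p = 0.0385, edgeR) without the block and −1.20 ± 0.226 (adjusted p = 1.46e-05) with it. Mir770, whose hairpin lies in Meg3, held 0.487 to 1.32% as many counts as Meg3, and in Top1 cKO-Veh it was at 2.35, 8.24 and 22.5 CPM against 3.51, 2.63 and 8.06 CPM in WT-Veh. The blocked estimate of 1.01 ± 0.377 for Mir770 did not pass (adjusted p = 0.075). Mir1906-1, also inside Meg3, had 1.56, 5.04 and 16.0 CPM in Top1 cKO-Veh against 2.63, 2.19 and 7.49 CPM in WT-Veh. Its blocked estimate was 0.70 ± 0.435 (adjusted p = 0.503, edgeR), and it was lower at number 1. Whether reads over these stretches were also counted for the hosts is not given in the sources used here, so such rows are not independent of Rian and Meg3.

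**Figure D5:**
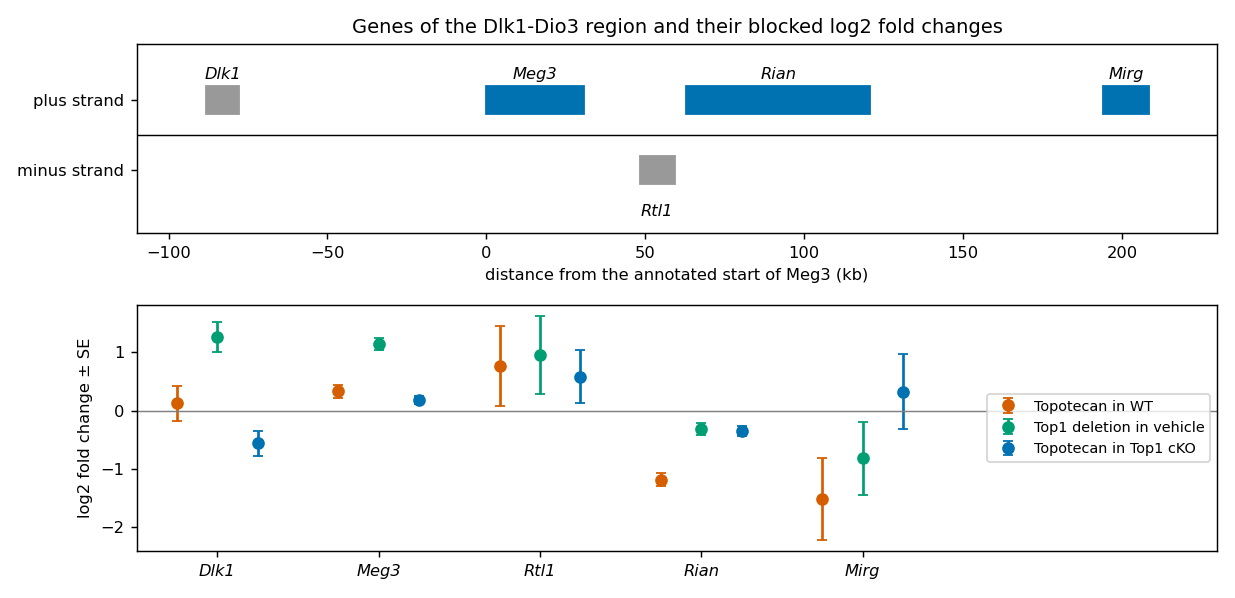
Top, Dlk1, Meg3, Rtl1, Rian and Mirg drawn to scale by strand, in kb from the annotated start of Meg3, with the noncoding members in blue. Bottom, log2 fold change with standard error from the blocked fit for topotecan in WT, Top1 deletion in vehicle and topotecan in Top1 cKO: Rian lay below 0 in all 3, and Dlk1 and Meg3 lay above 1 after deletion.

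Along the region, Meg3 ends 30.7 kb from its start, Rtl1 lies at 48.2 to 59.3 kb on the other strand, Rian at 62.9 to 120.7 kb and Mirg at 194.0 to 208.5 kb. Dlk1, at −88.2 to −77.7 kb, encodes a Notch-related surface protein and is expressed from the other parental chromosome. Dlk1 had a mean of 9.96 CPM in WT-Veh (9 to 41 counts per library) and of 24.1 CPM in Top1 cKO-Veh (25 to 134 counts), and its log2 fold change was 1.25 ± 0.382 (adjusted p = 0.201, edgeR) without the block and 1.27 ± 0.255 (adjusted p = 3.18e-05) with it. Of the 10 genes listed for the region and its neighbours, 9 had a mean of at least 1 CPM, and none of them was called in any comparison without the block (3 at an unadjusted p under 0.05 after deletion, 0 or 1 in the others). After deletion, 7.66% of genes averaging at least 1 CPM were lower and 6.54% higher at that p. With the block, Dync1h1, the dynein heavy chain gene beyond Dio3, was lower after deletion by −0.52 ± 0.0981 (adjusted p = 8.12e-06, edgeR). In that fit 2.95% of all genes were lower and 2.6% higher. Rtl1 and Dio3, at means of 1.65 to 6.79 CPM, were not called.

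Malat1, the speckle RNA, was higher after Top1 deletion in the blocked fit and not called for topotecan in either genotype. WT-Veh libraries had 154, 187 and 344 CPM, WT-Topot 126, 192 and 389, Top1 cKO-Veh 179, 414 and 574, and Top1 cKO-Topot 161, 425 and 512 CPM, so the groups overlapped throughout. Deletion gave 0.77 ± 0.341 (adjusted p = 0.511, edgeR) and, with the block, 0.71 ± 0.114 (adjusted p = 5.08e-08), with differences of 0.22, 1.14 and 0.73 at numbers 1, 2 and 3. That call was lost without number 2 (adjusted p = 0.0188). The effect of topotecan was 0.05 ± 0.322 in WT (−0.02 ± 0.124 with the block, and −0.02 with scaling on genes of up to 100 kb) and −0.08 ± 0.364 in Top1 cKO cultures, none of them called (adjusted p = 1 each). Top1 cKO-Topot was above WT-Veh by 0.71 ± 0.315 (adjusted p = 0.307) and by 0.64 ± 0.14 (adjusted p = 0.00116) with the block, a call kept without number 3 only.

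Neat1, which lies beside Malat1, was measured in its polyadenylated transcripts, with 3 to 60 counts per library. Counts are summed per symbol and do not separate its 4 annotated transcripts of 152 to 20771 bases. The level of the form that scaffolds paraspeckles is therefore not given by itself. The WT-Veh libraries had 0.878, 2.19 and 8.06 CPM, WT-Topot 4.36, 3.15 and 11.6, Top1 cKO-Veh 6.65, 1.83 and 12.5, and Top1 cKO-Topot 9.56, 19.9 and 18.4 CPM. Every Top1 cKO-Topot library was thus above every WT-Veh library, which held for 12.1% of genes averaging at least 1 CPM, and Neat1 was the only one of the 9 RNAs of which this was so. No member had groups without overlap between WT-Topot and WT-Veh (12.9% of genes higher), after deletion (10.3% lower, 9.58% higher) or for topotecan in Top1 cKO cultures (6.54% and 5.2%). The difference was 2.29 ± 0.544 (adjusted p = 0.0182, edgeR) without the block and 2.35 ± 0.382 (adjusted p = 1.76e-05) with it, and 1.94 to 3.27 when a number was left out, not called without number 1. Topotecan in Top1 cKO cultures gave 1.31 ± 0.505 (adjusted p = 0.918) and, with the block, 1.43 ± 0.29 (adjusted p = 0.000125). That estimate rested on number 2, where Neat1 went from 8 to 60 counts, and without it was 0.55 (adjusted p = 0.72). Topotecan alone (0.95 ± 0.458) and deletion alone (1.04 ± 0.472) gave blocked adjusted p-values of 0.222 and 0.201.

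Miat, the third nuclear RNA, was higher after topotecan alone and after deletion alone in the blocked fit. WT-Veh libraries had 36.3, 39.9 and 116 CPM, WT-Topot 78.8, 71.6 and 291, Top1 cKO-Veh 75.1, 115 and 343, and Top1 cKO-Topot 50.6, 164 and 230 CPM. Only the number 3 library of WT-Veh overlapped with the treated libraries. Topotecan in WT gave 1.23 ± 0.45 (adjusted p = 0.169, edgeR) and 1.12 ± 0.151 with the block (adjusted p = 1.1e-09), from differences of 1.10, 0.83 and 1.32. Deletion gave 1.49 ± 0.483 (adjusted p = 0.238) and 1.40 ± 0.145 with the block (adjusted p = 2.87e-19), and both blocked calls held without any 1 of the numbers. Adding topotecan to Top1 cKO cultures gave −0.17 ± 0.113 (adjusted p = 0.741) for Miat in the blocked fit, with differences of −0.56, 0.50 and −0.57. Without number 2 this became −0.56 and was called (adjusted p = 0.00285, edgeR), and without number 3 it was 0.08. Top1 cKO-Topot was above WT-Veh by 1.26 ± 0.413 (adjusted p = 0.106) and by 1.199 ± 0.181 with the block (adjusted p = 4.9e-06), a call of Miat that was lost without number 1 (adjusted p = 0.125). The topotecan effects in Top1 cKO and WT cultures differed by −1.25 ± 0.254 (adjusted p = 0.000549) with the block and by −1.47 ± 0.819 (adjusted p = 0.747) without it. Without number 3 the blocked interaction was −0.87 and no longer called (adjusted p = 0.183).

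Snhg11, a snoRNA host with high levels in neurons, was lower with topotecan and higher with deletion in the blocked fit. WT-Veh libraries had 116, 136 and 320 CPM, WT-Topot 64.0, 87.9 and 302, Top1 cKO-Veh 145, 220 and 539, and Top1 cKO-Topot 102, 315 and 450 CPM. Topotecan in WT gave −0.32 ± 0.425 (adjusted p = 0.978, edgeR) and −0.50 ± 0.135 with the block (adjusted p = 0.00488), and the difference at number 3 was only −0.08, against −0.85 and −0.62 at numbers 1 and 2. That call held in 1 of the 3 fits that left a number out, the one without number 3. Deletion gave 0.66 ± 0.408 (adjusted p = 0.787) and 0.60 ± 0.119 with the block (adjusted p = 2.85e-05), lost without number 3 (adjusted p = 0.0332). Between the single treatments, WT-Topot was below Top1 cKO-Veh by −1.10 ± 0.111 in the blocked fit (adjusted p = 8.99e-10), with each number lower, by −1.16, −1.32 and −0.83. This call was lost without number 2 (adjusted p = 0.118), and without the block the difference was −0.98 ± 0.463 (adjusted p = 0.407).

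Between the single treatments, Meg3 and Malat1 were lower in WT-Topot than with deletion alone as well. With the block, Meg3 differed by −0.82 ± 0.0896 (adjusted p = 4.99e-09, edgeR) and Malat1 by −0.74 ± 0.107 (adjusted p = 1.83e-06), each lower in all 3 numbers and each lost without number 2. Without the block the values were −0.73 ± 0.458 (adjusted p = 0.672) and −0.72 ± 0.357 (adjusted p = 0.458). Miat did not differ by the threshold, at −0.30 ± 0.123 with the block (adjusted p = 0.141), but without number 1 it was called, at −0.43 (adjusted p = 0.00315), and without number 2 it was −0.09.

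Gas5 and Snhg1, the hosts of box C/D snoRNAs whose spliced forms are unstable, were not called in any comparison with or without the block. Gas5 had 7.61, 9.64 and 19 CPM in WT-Veh and 13.7, 18.9 and 25.7 CPM in WT-Topot, higher in each number by 0.42 to 0.90, as were 27.0% of genes. The log2 fold change was 0.73 ± 0.361 (adjusted p = 0.412, edgeR) and 0.74 ± 0.258 with the block (adjusted p = 0.0431). After deletion Gas5 was at 6.65, 14 and 18.5 CPM (0.14 ± 0.421, adjusted p = 1), and Top1 cKO-Topot libraries had 8.76, 17.3 and 21.0 CPM. Snhg1, with 5 to 31 counts per library, was at 2.93, 5.70 and 6.91 CPM in WT-Veh and 4.02, 8.87 and 7.71 CPM in WT-Topot. Top1 cKO-Veh libraries of Snhg1 had 1.96, 3.21 and 5.01 CPM and Top1 cKO-Topot libraries 2.79, 4.32 and 7.43 CPM. Its largest difference was between WT-Topot and Top1 cKO-Veh, at 1.08 ± 0.384 with the block (adjusted p = 0.0653, edgeR).

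Across the 12 libraries, Pearson correlations of log2(CPM + 1) between Meg3, Malat1, Miat and Snhg11 were 0.825 (Miat and Snhg11) to 0.972 (Meg3 and Malat1). Rian correlated with Snhg11 at 0.755 and with Meg3 at 0.521, and Gas5 with Snhg1 at 0.826. These are descriptions over 12 libraries that share groups and replicate numbers. Among 9507 genes averaging at least 10 CPM, the genes most like each RNA were Luc7l3, which encodes a protein related to a splicing factor, for Meg3 (0.977), Meg3 for Malat1 (0.972), AF357359 for Rian (0.974), Leng8 for Miat (0.959) and Malat1 for Snhg11 (0.954). For the weaker RNAs they were Tial1, an RNA-binding protein gene, for Neat1 (0.926), Wsb2 for Mirg (0.912), Fam114a2 for Gas5 (0.962) and Serinc1 for Snhg1 (0.878).

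Other genes of the same classes were compared as lists. Of 21 other imprinted genes averaging at least 1 CPM, topotecan in WT lowered Trappc9 (−1.48 ± 0.28, adjusted p = 0.00232, edgeR) and Usp29 (−1.01 ± 0.192, adjusted p = 0.00241) and raised the potassium channel gene Kcnk9 (1.59 ± 0.241, adjusted p = 0.000235) and the neuronatin gene Nnat (0.98 ± 0.195, adjusted p = 0.00358) without the block. Of all genes, 2.04% were lower and 0.682% higher in that fit. With the block, 4 of the 21 were lower and 4 higher in WT-Topot (5% and 3.24% of all genes). None of the 21 was called after deletion without the block (11 at an unadjusted p under 0.05, against 7.66% of genes lower and 6.54% higher at that p). In the blocked fit 9 were higher and 2 lower (2.6% and 2.95% of all genes), among them Nap1l5 (1.04, adjusted p = 1.51e-22) and Kcnq1ot1 (1.64, adjusted p = 0.000166), a long noncoding RNA of another imprinted cluster. In Top1 cKO-Topot against WT-Veh, H19, a maternally expressed noncoding RNA, was lower (−3.08 ± 0.67, adjusted p = 0.00981) and Kcnk9 higher (1.61 ± 0.25, adjusted p = 0.000388). H19 was near the floor, with 0 to 7 counts per library in Top1 cKO-Topot, and varied in WT-Veh, with 13 to 98 counts. In the blocked fit of this comparison 3 of the 21 were lower and 9 were higher (4.02% and 3.34% of all genes). In WT-Topot against Top1 cKO-Veh, Trappc9 was lower (−1.49 ± 0.27, adjusted p = 0.00354), as were 4 with the block (4.8% of all genes). The interaction gave no call (8 at an unadjusted p under 0.05, against 5.95% of genes lower and 7.47% higher), and in the blocked fit 3 were lower and 3 were higher (1.53% and 2.44% of all genes). Topotecan in Top1 cKO cultures gave no call (4 at an unadjusted p under 0.05, against 4.31% and 2.54% of genes), and with the block Igf2 and Nnat were lower and Peg10 higher (1.74% and 0.858% of all genes).

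Of 14 paraspeckle proteins, Rbm14 was higher in WT-Topot (1.19 ± 0.233, adjusted p = 0.00306, edgeR), and with the block Pspc1 was too (0.90, adjusted p = 7.76e-06). Of all genes, 0.682% were higher in that comparison without the block and 3.24% with it. After deletion none was called without the block (2 at an unadjusted p under 0.05, against 7.66% of genes lower and 6.54% higher). With the block, Pspc1 (0.67) and the TDP-43 gene Tardbp (0.60) were higher, as were 2.6% of all genes. Of 15 nuclear speckle and splicing partners of Malat1 and Miat, none was called in any comparison without the block, although 7 were at an unadjusted p under 0.05 in WT-Topot, against 11.7% of genes lower and 9.65% higher at that p. With the block, Srsf1, Srsf2 and Srsf3, genes of SR splicing factors, were higher in WT-Topot by 0.57 to 0.72, and the quaking gene Qk was lower (−0.63, adjusted p = 5.83e-05). In that fit 3.24% of all genes were higher and 5% lower, and 7.17% and 11.1% of those averaging at least 10 CPM. After deletion, Srsf1 (0.59, adjusted p = 0.000152, edgeR) and Srsf7 (0.59, adjusted p = 0.00145) were higher with the block, as were 2.6% of all genes. In Top1 cKO-Topot against WT-Veh, Srsf1 was higher (0.72) and Qk lower (−0.65) with the block, against 3.34% and 4.02% of all genes. Of 11 other long noncoding RNAs, 6330403K07Rik was higher in WT-Topot (1.22 ± 0.233, adjusted p = 0.00247) and, with the block, after deletion (1.07, adjusted p = 2.98e-18). The shares of all genes called higher in these fits were 0.682% and 2.6%.

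The lists related to Gas5, Snhg1 and Snhg11 gave no call without the block in any comparison. They were 9 other noncoding snoRNA hosts (0 to 2 at an unadjusted p under 0.05), 12 protein-coding snoRNA hosts (0 or 1) and 10 nonsense-mediated decay factors (0 to 2). Over the comparisons, 4.31 to 11.9% of genes averaging at least 1 CPM were lower and 2.54 to 10.4% higher at that p. With the block, Eif4a2 was higher in WT-Topot (0.50, adjusted p = 0.000398, edgeR), Eef2 was lower after deletion (−0.41, adjusted p = 0.00129), and Snhg5 was higher (1.02, adjusted p = 0.00367) and Smg1 lower (−0.63, adjusted p = 5.04e-05) for WT-Topot against Top1 cKO-Veh. Of all genes, 3.24% were higher in WT-Topot and 2.95% lower after deletion with the block. For WT-Topot against Top1 cKO-Veh, 2.93% were higher and 4.8% lower. Between numbers 3 and 1, 88.9% of the other noncoding hosts and 83.3% of the protein-coding hosts were higher in number 3, against 49.0% of all genes averaging at least 1 CPM.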

How the data were processed

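PolyA RNA of 12 cortical neuron cultures, with RNA integrity numbers above 7, was made into TruSeq libraries and sequenced. Per the paper, TagDust was used to filter the reads, TopHat to align them to mm9 (also in the submitters' processing notes), and reads on rRNA were discarded. The authors deposited raw counts over RefSeq exons, summed per gene symbol and not normalized. The counting program, its use of strand and the RefSeq release are not given in the sources used here. Reads of overlapping genes may therefore be shared: Meg3 and Malat1 each overlap a gene on the other strand, and Gas5, Snhg1, Snhg11, Rian, Mirg and Meg3 contain snoRNA or microRNA genes on their own strand. PolyA selection records only the polyadenylated transcripts of these RNAs.

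From the deposited counts, TMM factors and CPM were computed with edgeR 4.0.16 (R 4.3.3), and 2 groups at a time (6 libraries) were tested by quasi-likelihood (glmQLFit, glmQLFTest) over 23893 genes without a filter, with Benjamini-Hochberg adjustment and an FDR of 0.01. The interaction used all 12 libraries. Levels are given with the SD over 3 cultures, fold changes on the log2 scale with the standard error from edgeR. Nothing states that the cultures came from separate litters, so the spread behind the p-values may be technical. edgeR moderates the spread of each gene with that of all genes, so blocked standard errors can be smaller than the scatter of the 3 within-number differences. For Malat1 after deletion these differences had an SD of 0.462, against a blocked standard error of 0.114. These are unlike measures, since the SD of single differences exceeds the standard error of their mean without any moderation. For Rian in WT-Topot the order was reversed, with an SD of 0.026 and a blocked standard error of 0.116. A small blocked p-value therefore does not measure how well the 3 numbers agree for 1 gene. Within-number differences are on log2(CPM + 1). Whether the replicate numbers of the labels pair libraries was checked on 13720 genes averaging at least 1 CPM: deviations from group means correlated at 0.261 to 0.485 over all 18 pairs with the same number and at −0.384 to −0.0494 between numbers, so the blocked fit is given where it changes a call. No libraries of a group were repeats (dispersion index 6.05 to 10.1). Tests were checked on simulated counts. The alternatives were RLE and no scaling, scaling on genes of 100 kb or less, filterByExpr, the exact test, DESeq2 1.42.0, the replicate block, and leaving out libraries. Fits with the block that leave out a replicate number were added after the data were seen. They hold fewer libraries, so a lost call does not show that the number left out carried the difference. Calls were lost together, for all called members without number 1 in Top1 cKO-Topot against WT-Veh. The same held without number 2 in WT-Topot against Top1 cKO-Veh.

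Coordinates and exon lengths are from GENCODE vM1, which 21013 symbols matched directly and 1046 through RefSeq synonyms. All 9 members are named in every comparison. From each list, up to 4 called genes with the largest change were taken, or that with the smallest p where none was called, and some blocked calls are named after their values were seen. Like genes are those with the highest Pearson correlation of log2(CPM + 1) over 12 libraries. Marker lists of interneurons (492 to 1690 CPM), oligodendrocyte lineage (96.2 to 294 CPM), endothelial and mural cells (9.45 to 43.0 CPM) and proliferation (0 to 4.78 CPM) were summed as well as those in the text. Members and lists were chosen with earlier results of these data known.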

Additional observations from a re-analysis of the deposited data

Results flagged for a closer look

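In the blocked fit, the effect of topotecan differed between WT and Top1 cKO cultures for 2 of the 9 RNAs, where 1.53% of all genes had a lower and 2.44% a higher effect in Top1 cKO cultures (3.51% and 5.88% of genes averaging at least 10 CPM). The interaction was 0.84 on the log2 scale for Rian (edgeR, adjusted p = 5.26e-05), which was lower with topotecan at all 3 numbers in both genotypes but by more in WT, and −1.25 for Miat (adjusted p = 0.000549), which was higher with topotecan at all 3 numbers in WT and at 1 of 3 in Top1 cKO cultures. In the fit without the block neither interaction passed the FDR of 0.01 (0.85, adjusted p = 0.81, and −1.47, adjusted p = 0.747). No group was large enough for a single library to be tested as an outlier.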

How the results depend on the processing

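Scaling by RLE, without a factor or on genes of 100 kb or less, filterByExpr and the edgeR exact test left every count of called members at 0, the exact test being run for the 5 comparisons of groups. DESeq2 called 1 member lower in WT-Topot (Rian). In the fits with the replicate block, the members called lower and higher were 2 and 1 for WT-Topot, 0 and 4 for Top1 cKO-Veh and 1 and 4 for Top1 cKO-Topot (each against WT-Veh), 1 and 1 for topotecan in Top1 cKO cultures, 4 and 0 in WT-Topot against Top1 cKO-Veh, and 1 and 1 for the interaction. The block changed no other call of a member. Malat1 in WT-Topot turned from 0.05 to −0.015 with the block and to −0.017 with scaling on genes of 100 kb or less. Listed genes were run with and without the block only.

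When libraries were left out, without or with the block, 0 to 2 members were lower and 0 to 2 higher for WT-Topot, 0 to 4 were higher for Top1 cKO-Veh, 0 to 1 lower and 0 to 5 higher for Top1 cKO-Topot (each against WT-Veh), 0 to 1 lower and 0 to 2 higher for topotecan in Top1 cKO cultures, 0 to 5 lower in WT-Topot against Top1 cKO-Veh, and 0 to 1 lower and 0 to 1 higher for the interaction. Without the block and without WT-Topot replicate 3, Rian and Snhg11 were lower in WT-Topot, and without WT-Veh replicate 3, 5 members were higher in Top1 cKO-Topot.

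In WT-Topot against WT-Veh, the log2 fold change then ranged from −0.521 to 0.475 for Malat1, −0.462 to 1.064 for Meg3 and −1.322 to 0.268 for Snhg11. In Top1 cKO-Veh against WT-Veh it ranged from −0.776 to 0.1 for Rian, −1.284 to 0.053 for Mirg, −0.053 to 1.253 for Snhg11 and −0.151 to 0.597 for Gas5. For topotecan in Top1 cKO cultures it ranged from −0.418 to 0.309 for Malat1, −0.267 to 0.834 for Meg3, −0.853 to 0.151 for Rian, −0.109 to 0.721 for Mirg, −0.7 to 0.64 for Miat, −0.511 to 0.67 for Snhg11 and −0.023 to 0.572 for Gas5. In Top1 cKO-Topot against WT-Veh it ranged from −0.893 to 0.521 for Mirg and −0.457 to 0.223 for Snhg1, and in WT-Topot against Top1 cKO-Veh from −0.792 to 0.621 for Neat1 and −1.211 to 0.599 for Miat. The interaction ranged from −0.551 to 0.428 for Malat1, −0.765 to 1.382 for Neat1, −0.893 to 0.615 for Meg3, −0.309 to 1.261 for Snhg11 and −0.35 to 0.397 for Snhg1. The cause was not tested. Mirg, Neat1, Snhg1 and Gas5 had only 2 to 66 counts per library, and the part of depth in their results was not tested.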
